A study of Mus musculus with 12 samples.

Results

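The E2F transcription factors and the retinoblastoma (RB) pocket proteins were examined in RNA-seq counts from mouse adult fibroblasts (MAFs). The 10 genes followed were E2f1 to E2f8, Rb1 and Rbl1, taken by name from 49315 gene identifiers, and all 10 had a row for every library and passed the filter on low counts that left 17416 genes for testing. MAFs are primary cells, here grown from ear tissue of adult females, either C57BL6/J (WT) or Bmal1-/- (KO). The knockout removes the circadian clock factor BMAL1, encoded by Arntl. Within each genotype, senescent cells had received 20 Gy of X-rays and control cells a sham treatment. The irradiated cells were then kept in culture for several weeks. All cells were kept at 3% oxygen, treated with 100 nM dexamethasone for 2 h to set the clock to a common phase, and collected 12 h later. Each of the 4 groups, control and senescent cells of either genotype, held 3 libraries. Neither the number of animals behind a group nor whether replicates were separate cultures is given in the sources used here, so p-values measure the spread between these libraries, which may be technical.

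E2F proteins bind DNA at the promoters of genes for DNA replication and cell division, most of them as dimers with a DP protein (Tfdp1, Tfdp2). E2F1, E2F2 and E2F3 are known mainly as activators, E2F4 and E2F5 as repressors that work with pocket proteins, E2F6 as a repressor that needs no pocket protein and acts in a Polycomb complex, and E2F7 and E2F8 as atypical repressors that need neither a DP protein nor a pocket protein. Pocket proteins bind E2F proteins in resting cells, and phosphorylation by cyclin-dependent kinases (CDKs) releases them. RB, encoded by Rb1, holds mostly the activators, whereas p107 (Rbl1) and p130 (Rbl2) hold mostly E2F4 and E2F5 and assemble the DREAM complex, which silences cell cycle genes in quiescence. In senescent fibroblasts, RB is known for keeping E2F targets silent.

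The libraries held 23923030 to 31736083 counts, and every member had at least 38 counts in every library. Levels are given as CPM, counts brought to a common library total after scaling by trimmed mean of M-values (TMM), on which 3 counts equalled 0.101 to 0.135 CPM. The targeted gene, Arntl, was at 29.8 to 37.4 CPM in WT libraries and at 11.8 to 27.5 CPM in KO libraries, with no overlap between genotypes, and its reads were counted in every KO library. KO control libraries held 11.8 to 15.2 CPM and KO senescent ones 25.3 to 27.5 CPM. Against WT, Arntl was lower in KO by a log2 fold change of −1.26 in control cells but −0.44 in senescent cells. All 6 fibroblast markers exceeded 1 CPM on average, and their summed level was 12563 to 12911 CPM in WT control, 4894 to 4976 in WT senescent, 16631 to 17238 in KO control and 6885 to 7052 in KO senescent cells. The 6 chondrocyte markers also all exceeded 1 CPM, at a summed 7147 to 8819, 1963 to 2281, 4760 to 6450 and 634 to 736 CPM in the same order of groups. They were thus lower in senescent cells and lower in KO than in WT cells, and no marker of this list was at 0. Marker lists of keratinocytes, macrophages, endothelium, melanocytes and skeletal muscle summed to at most 58.6 CPM in any library. The part of these markers in the results was not tested. In bulk RNA, fewer cells of a type and less RNA per cell cannot be told apart.

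Promoter sequence was available for 7 of the 10 members in a RefSeq table on GRCm38.p6 that gives 250 bases before and 50 bases after each start. E2f4, E2f5 and Rb1 had no entry. Each promoter was searched on both strands for the E2F letters TTTCGCGC, TTTGGCGC, TTTCCCGC and TTTGCCGC. The letters TTTGAA and TTCGAA of the cell cycle homology region (CHR), an element through which DREAM acts, were searched for likewise. E2F letters stood in 4 of the 7 members with an entry (E2f2, E2f3, E2f7 and Rbl1), against 2.26% of all 32817 promoters and 2.6% of the 27025 genes in the table. CHR letters stood in 3 (E2f2, E2f3 and E2f8), against 19.2% of promoters and 21.7% of genes. The stretches that held them are printed below from 5′ to 3′ on the strand of the gene, with the matched letters in capitals, to show which letters of the pathway's own elements the promoters hold. In Rbl1 the match began 18 bases before the start (chr2:157204535-157204614, minus strand), in E2f7 198 bases before it (chr10:110745205-110745284, plus strand) and in E2f3 11 bases before it, with CHR letters 23 bases before it (chr13:29986064-29986143, minus strand). In E2f8 only CHR letters were found, 20 bases before the start (chr7:48881597-48881676, minus strand). In E2f2 the E2F letters began at base 40 of the transcript (chr4:136172294-136172323, plus strand), and its CHR letters belong to a second start in the table, which is not shown. The first E2f2 start lies at −120 bases from the annotated gene start, so the printed stretch lies outside the annotated gene. The second lies 8388 bases inside the gene.
Rbl1: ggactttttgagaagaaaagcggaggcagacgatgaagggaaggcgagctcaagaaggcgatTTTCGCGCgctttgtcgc
E2f7: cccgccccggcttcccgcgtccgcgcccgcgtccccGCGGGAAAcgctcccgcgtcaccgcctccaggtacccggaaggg
E2f3: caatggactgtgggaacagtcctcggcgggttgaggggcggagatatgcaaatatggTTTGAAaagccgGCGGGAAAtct
E2f8: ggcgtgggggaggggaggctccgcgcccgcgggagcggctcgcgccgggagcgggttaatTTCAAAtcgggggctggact
E2f2: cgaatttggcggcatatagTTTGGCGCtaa

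The E2f7 and E2f3 matches are TTTCCCGC read on the opposite strand, the E2f8 match is TTTGAA read on the opposite strand, and no match overlapped another. No match was found in the entries of E2f6 and E2f1. The E2f1 entry starts 466 bases inside the annotated gene, so its window does not cover the gene's 5′ end. A match describes letters only and does not show that a factor binds there.

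The senescence change was examined first in WT cells. Of the 10 members, E2f2, E2f7, E2f8 and Rbl1 were called lower in senescent cells, where a call needed an adjusted p under 0.05 in edgeR's quasi-likelihood test and a log2 fold change over 1 in size. Of all genes tested, 5.9% were called lower. No member was called higher by edgeR, DESeq2 or limma-voom, against 11.6% of all genes, and 1 was higher at an unadjusted p under 0.05. By the adjusted p alone, 8 members were lower (27% of all genes) and 1, Rb1, was higher (29.2%), while E2f6 did not pass. The median log2 fold change was −0.66 over the members and 0.02 over all genes tested.

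KO cells gave the same 4 members as called lower, at a background of 7.58%. None was called higher by edgeR, DESeq2 or limma-voom (background 11.2%), and 1 was higher at an unadjusted p under 0.05. By the adjusted p alone, 7 were lower (28.6% of all genes) and 1, E2f6, was higher (28.5%), while E2f3 and Rb1 did not pass. The member median was −0.56, against −0.0028 over all genes tested.

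The atypical repressors moved furthest of all members. E2f7 (ENSMUSG00000020185, chromosome 10, 110745439 to 110787384) measured 51.2, 44.2 and 58.7 CPM in the WT control libraries, against 3.40, 3.40 and 3.55 CPM in the WT senescent ones. In KO cells it was at 49.8, 45.7 and 44.4 CPM in control and 2.82, 2.38 and 1.92 CPM in senescent replicates. Control and senescent libraries of each genotype were thus far apart, and the 3 KO senescent libraries lay below the 3 WT senescent ones. The log2 fold change with senescence was −3.89 (SE 0.12, edgeR adjusted p 3.87e-16) in WT and −4.30 (SE 0.12, edgeR adjusted p 1.34e-16) in KO cells, that is, to 0.0673 and 0.0507 of the control level. The WT and KO changes differed by −0.41 (SE 0.18), which did not pass (edgeR adjusted p 0.123). Without WT control replicate 3 it passed, at −0.52 and an edgeR adjusted p of 0.0364.

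E2f8 (ENSMUSG00000046179, chromosome 7, 48866429 to 48881596, minus strand), which partners E2F7 in repressing E2F targets and whose promoter holds the CHR letters shown above, followed closely. It measured 49.4, 43.8 and 49.4 CPM in WT control libraries against 3.30, 3.87 and 3.78 CPM in WT senescent ones, then 41.4, 43.1 and 38.4 CPM in KO control and 3.63, 1.84 and 1.82 CPM in KO senescent cells. Senescent and control libraries did not overlap in either genotype, but KO senescent replicate 1 lay among the WT senescent libraries. Its senescence change was −3.70 on the log2 scale (SE 0.15, edgeR adjusted p 7.51e-12) in WT and −4.09 (SE 0.16, edgeR adjusted p 4.24e-12) in KO cells. The difference of −0.39 between genotypes did not pass (edgeR adjusted p 0.274), except without KO senescent replicate 1, where it was −0.77 (edgeR adjusted p 0.00315). Exons of E2f8 share 610 bases (11.2%) with Gm2788 on the other strand, and Gm2788 itself was at 0.0675 to 1.59 CPM in every library.

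**Figure D1:**
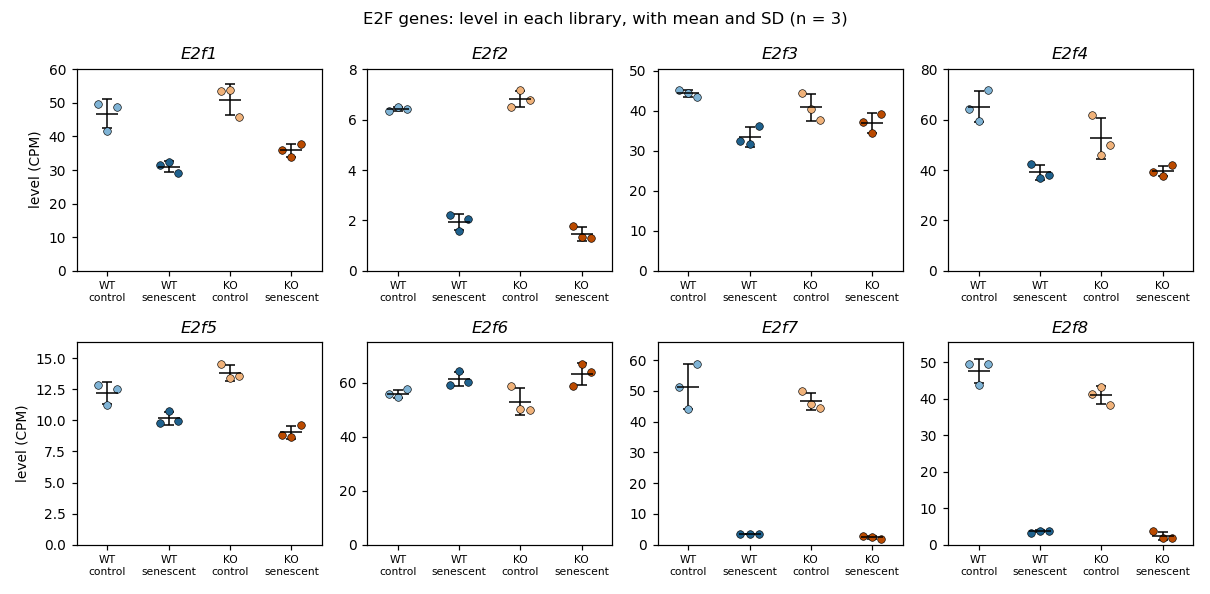
Level of each E2F gene in CPM (vertical axis, from 0, on a scale of its own in each panel) in the 12 libraries. Points are libraries, bars the mean and SD of 3 libraries. E2f7 and E2f8 drop from 38.4 to 58.7 CPM in control libraries to under 4 CPM in senescent ones, whereas E2f6 lies between 50.0 and 66.8 CPM throughout.

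The activators differed among themselves. E2f2 (ENSMUSG00000018983, chromosome 4, 136172394 to 136196057) was the least abundant. It measured 6.35, 6.51 and 6.41 CPM in WT control libraries against 2.21, 1.58 and 2.05 CPM in WT senescent ones. In KO cells its level was 6.52, 7.17 and 6.78 CPM in control and 1.78, 1.35 and 1.28 CPM in senescent cells. Senescent libraries held only 38 to 65 counts of E2f2, yet control and senescent libraries stayed apart in both genotypes. On the log2 scale the change was −1.72 (SE 0.18, edgeR adjusted p 4.19e-08) in WT and −2.22 (SE 0.18, edgeR adjusted p 1.26e-09) in KO cells.

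E2f1 (ENSMUSG00000027490, chromosome 2, 154559407 to 154569892, minus strand) fell less, and below the fold required for a call. It measured 49.7, 41.7 and 48.9 CPM in WT control libraries against 31.4, 32.5 and 29.1 CPM in WT senescent ones. The KO values were 53.5, 53.8 and 45.8 CPM in control and 35.9, 33.8 and 37.9 CPM in senescent libraries. The groups did not overlap within a genotype, and the log2 fold change was −0.59 (SE 0.08, edgeR adjusted p 1.7e-06) in WT and −0.51 (SE 0.08, edgeR adjusted p 9.94e-06) in KO cells. All 3 KO senescent libraries lay above the WT senescent ones, by a log2 fold change of 0.21 (95% interval 0.05 to 0.36) that did not pass (edgeR adjusted p 0.0624). It passed under 5 of 15 alternatives, DESeq2 (0.0349) and the removal of KO senescent replicate 2 (0.0484) among them.

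E2f3 (ENSMUSG00000016477, chromosome 13, 29906575 to 29986063, minus strand), whose promoter holds both letter sets, moved little. Its level went from 45.2, 44.4 and 43.5 CPM in WT control to 32.4, 31.7 and 36.2 CPM in WT senescent cells, with no overlap and a log2 fold change of −0.41 (SE 0.07, edgeR adjusted p 6.04e-05). In KO cells the control values of 44.5, 40.5 and 37.8 CPM and the senescent values of 37.2, 34.4 and 39.2 CPM overlapped, and the log2 fold change of −0.15 (95% interval −0.29 to −0.01) did not pass (edgeR adjusted p 0.0846). The KO change did pass without control replicate 3 (−0.21, edgeR adjusted p 0.0314) or senescent replicate 3 (−0.20, edgeR adjusted p 0.0407), and it was 0.0045 with total counts. The difference between genotypes was 0.26 (SE 0.10) and did not pass (edgeR adjusted p 0.0781). It passed with DESeq2 (0.0491), with DESeq2's size factors, and when replicate 3 of WT senescent, 1 of KO control or 2 of KO senescent cells was left out, at a lowest edgeR adjusted p of 0.023. E2f1 to E2f3 are all known as activators, and only E2f2 of the 3 was called lower, in both genotypes.

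Of the repressors that work with pocket proteins, E2f4 (ENSMUSG00000014859, chromosome 8, 105297663 to 105305370) measured 64.4, 59.6 and 71.7 CPM in WT control libraries against 42.6, 36.9 and 38.1 CPM in WT senescent ones. The KO values were 61.8, 46.0 and 50.0 CPM in control and 39.4, 37.7 and 41.8 CPM in senescent libraries. KO control replicate 1 lay near the WT control libraries and the other KO control libraries below them. With senescence E2f4 changed by −0.73 on the log2 scale (SE 0.10, edgeR adjusted p 7.72e-06) in WT and −0.41 (SE 0.10, edgeR adjusted p 0.0021) in KO cells. The difference of 0.33 (SE 0.14) did not pass (edgeR adjusted p 0.11). It passed without KO control replicate 1, at 0.46 and an edgeR adjusted p of 0.00311, without the filter (0.0119) and with a replicate block over all libraries (0.0314), but not with a block within each genotype (0.0529).

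E2f5 (ENSMUSG00000027552, chromosome 3, 14578641 to 14606309) went from 12.9, 11.2 and 12.6 CPM to 9.76, 10.7 and 9.96 CPM in WT cells and from 14.5, 13.4 and 13.6 CPM to 8.84, 8.65 and 9.66 CPM in KO cells. The groups did not overlap in either genotype, though in WT cells the gap between control replicate 2 and senescent replicate 2 was small. E2f5 changed by −0.26 on the log2 scale (SE 0.10, edgeR adjusted p 0.0288) in WT and −0.61 (SE 0.10, edgeR adjusted p 2.18e-05) in KO cells. The WT change did not pass without WT control replicate 1 (edgeR adjusted p 0.102) or 3, without replicate 1 or 3 of the WT senescent cells, without the filter, with a replicate block within genotypes, or with upper-quartile scaling or total counts (highest 0.425).

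E2f6 (ENSMUSG00000057469, chromosome 12, 16810963 to 16839742), the Polycomb-linked repressor, was the only E2F gene with higher means in senescent cells of both genotypes. It measured 55.6, 54.6 and 57.5 CPM in WT control libraries against 59.2, 64.2 and 60.2 CPM in WT senescent ones, which did not overlap. The KO values, 58.7, 50.1 and 50.0 CPM in control and 58.5, 66.8 and 64.0 CPM in senescent libraries, overlapped. Its log2 fold change was 0.13 in WT (SE 0.07, edgeR adjusted p 0.104, 95% interval −0.00065 to 0.26) and 0.25 in KO cells (SE 0.07, edgeR adjusted p 0.00275), so E2f6 passed the test in KO cells and not in WT cells. With upper-quartile scaling (0.22), total counts (0.30) or a stricter filter (0.16) the WT change passed too. Upper-quartile scaling and total counts also raise the WT median of all genes, from 0.02 to 0.11 and 0.19. The changes in the 2 genotypes were not shown to differ (0.12, edgeR adjusted p 0.395).

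Pocket protein genes moved in opposite directions. Rbl1 (ENSMUSG00000027641, chromosome 2, 157145893 to 157204534, minus strand), which encodes p107, measured 59.7, 52.2 and 64.7 CPM in WT control libraries against 14.0, 13.8 and 13.9 CPM in WT senescent ones. In KO cells it was at 57.9, 58.6 and 55.8 CPM in control and 10.4, 10.7 and 11.7 CPM in senescent cells, so that every KO senescent library lay below every WT senescent one. Rbl1 changed by −2.08 on the log2 scale (SE 0.08, edgeR adjusted p 5.21e-15) in WT and −2.39 (SE 0.08, edgeR adjusted p 7.56e-16) in KO cells. Their difference was −0.31 (SE 0.11, edgeR adjusted p 0.0519), close to the threshold. It passed under 7 of 21 alternatives, among them the removal of WT control replicate 3 (−0.39, edgeR adjusted p 0.0154) or KO senescent replicate 3 (−0.36, edgeR adjusted p 0.0371).

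Rb1 (ENSMUSG00000022105, chromosome 14, 73183673 to 73325822, minus strand) rose in senescent WT cells, from 25.5, 27.4 and 25.5 CPM to 51.1, 50.5 and 53.6 CPM. The groups were well apart, at a log2 fold change of 0.98 (SE 0.07, edgeR adjusted p 9.28e-11), or 1.98-fold, just under the size that a call required. With upper-quartile scaling (1.07), total counts (1.15), a stricter filter (1.01) or without WT control replicate 2 (1.02) it met that size too. In KO cells Rb1 was at 29.6, 33.1 and 35.3 CPM in control and 36.5, 34.8 and 35.7 CPM in senescent cells. These overlapped, and the log2 fold change of 0.12 (SE 0.07, 95% interval −0.0089 to 0.26) did not pass (edgeR adjusted p 0.126). It passed with upper-quartile scaling (0.21, edgeR adjusted p 0.017) and total counts (0.28, edgeR adjusted p 0.00154), which also raise the median of all genes by 0.08 and 0.15. All 6 KO libraries lay between the WT control and the WT senescent libraries.

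**Figure D2:**
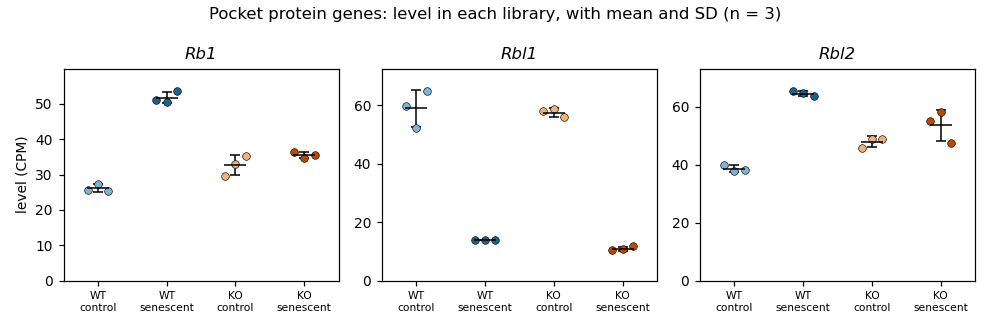
Level of the 3 pocket protein genes in CPM (vertical axis, from 0) in the 12 libraries, with points for libraries and bars for the mean and SD of 3 libraries. Rb1 goes from 25.5 to 27.4 CPM in WT control up to 50.5 to 53.6 CPM in WT senescent libraries, while the 6 KO libraries sit from 29.6 to 36.5 CPM. Rbl1 is lower in all senescent libraries.

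Rb1 was the only member whose senescence change differed between genotypes by the adjusted p. The KO change was smaller by 0.86 on the log2 scale (95% interval of the interaction −1.05 to −0.67, edgeR adjusted p 7.73e-06), and the interaction passed under all 21 alternatives, from −0.93 to −0.81 with a library left out. Of all genes tested, 20.9% passed in the interaction by the adjusted p alone and 3.66% with the fold required for a call, where no member was called by edgeR, DESeq2 or limma-voom and 6 members had an unadjusted p under 0.05. The interaction held differences in both states. Rb1 was higher in KO than in WT control cells by 0.32 (SE 0.07, edgeR adjusted p 0.00353) and among senescent cells lower in KO by a log2 fold change of −0.54 (SE 0.07, edgeR adjusted p 5.1e-06), with no overlap between genotypes in either state.

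Exons of Rb1 share 896 bases (14.9%) with Rcbtb2 and Lpar6 on the other strand, and the use of strand in counting is not given in the sources used here, so reads from these stretches may not be assigned without error. Rcbtb2 was at 47.5 to 49.2 CPM in control and 51.2 to 53.2 CPM in senescent WT cells, and at 45.3 to 50.7 and 34.1 to 38.1 CPM in the respective KO cells. Its interaction was −0.52 (edgeR adjusted p 0.000269). Lpar6, a lysophosphatidic acid receptor gene, was at 8.92 to 19.5 CPM and rose by 0.62 (WT) and 0.58 (KO) on the log2 scale (edgeR adjusted p 3.97e-05 and 0.000112), with an interaction of −0.05 (edgeR adjusted p 0.868). The part of either gene in the Rb1 counts was not tested. Chondrocyte markers, given above, also differed between KO and WT cells, and their part was not tested.

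Rbl2 (ENSMUSG00000031666, chromosome 8, 91070057 to 91123844), the remaining pocket protein gene and source of the p130 of quiescent cells, is not among the 10 members and had a course like that of Rb1. It went from 40.1, 38.0 and 38.1 CPM to 65.4, 64.7 and 63.7 CPM in WT cells, without overlap, a log2 fold change of 0.74 (SE 0.07, edgeR adjusted p 6.25e-09). In KO cells the values were 45.8, 49.1 and 49.0 CPM in control and 55.1, 58.3 and 47.6 CPM in senescent cells, which overlapped because of senescent replicate 3. The KO change of 0.16 passed narrowly (edgeR adjusted p 0.0453) and lost significance under 9 of 16 alternatives, among them the removal of any KO library but senescent replicate 3, with a highest adjusted p of 0.288. The interaction was −0.58 (SE 0.09, edgeR adjusted p 0.000235) and held under all 21 alternatives. Exons of Rbl2 share 21% of their bases with Aktip and Gm45464 on the other strand. Aktip, at 20.6 to 50.9 CPM, rose in both genotypes with an interaction of 0.05 (edgeR adjusted p 0.778).

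**Figure D3:**
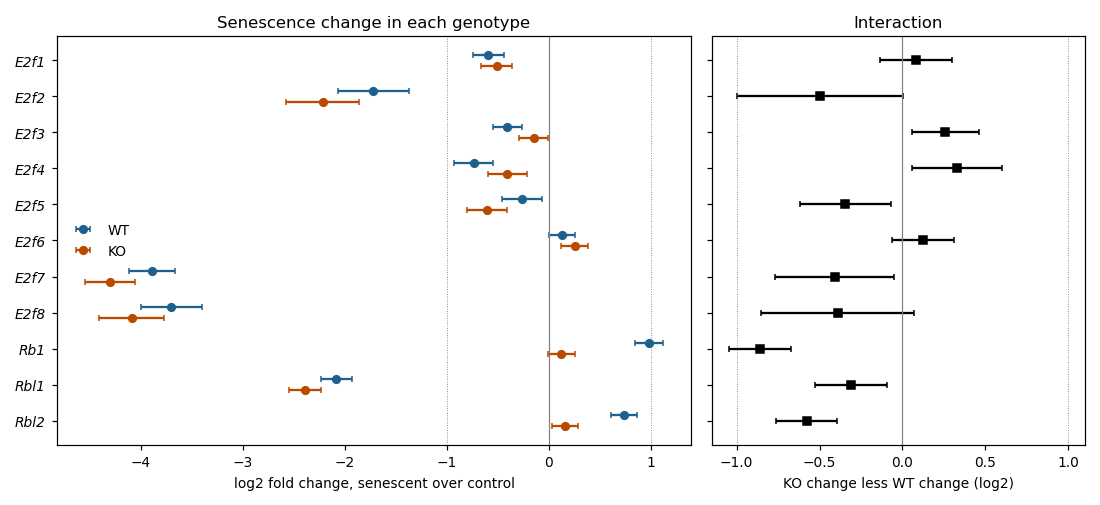
Senescence log2 fold change of each gene in WT and KO cells (left, horizontal axis) and the KO change less the WT change (right). Bars are 95% intervals from edgeR and dotted lines mark −1 and 1. E2f2, E2f7, E2f8 and Rbl1 lie beyond −1 in both genotypes, and in the right panel Rb1 (−0.86) and Rbl2 (−0.58) lie furthest from 0.

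KO and WT cells were also compared directly within each state. Each genotype was deposited as its own table, so table and genotype cannot be told apart there, while a shift common to a genotype cancels in the interaction. Among control cells, 2 members passed by the adjusted p alone, Rb1 (given above) and E2f4, against 13% of all genes. E2f4 was lower in KO cells by a log2 fold change of −0.31 (SE 0.10, edgeR adjusted p 0.0447), although KO control replicate 1 overlapped the WT libraries, and the call was lost when any of WT control replicates 1 and 3 and KO control replicates 2 and 3 was left out (highest edgeR adjusted p 0.184). No member was called with the fold threshold by edgeR, DESeq2 or limma-voom (background 2.54%), and 2 had an unadjusted p under 0.05. E2f7, E2f8 and Rbl1 differed by −0.14, −0.21 and −0.03 between KO and WT control cells and did not pass (edgeR adjusted p 0.361, 0.286 and 0.818).

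Among senescent cells, 4 members were lower in KO cells by the adjusted p alone (23.7% of all genes passed), and none was called with the fold threshold by edgeR, DESeq2 or limma-voom (3.48%), with 5 at an unadjusted p under 0.05. Beside Rb1 these were E2f7 at −0.55 (SE 0.16, edgeR adjusted p 0.0148), E2f8 at −0.60 (SE 0.20, edgeR adjusted p 0.0414) and Rbl1 at −0.34 (SE 0.09, edgeR adjusted p 0.0051). The libraries of E2f7, Rb1 and Rbl1 did not overlap between genotypes and those of E2f8 did. The E2f7 difference was lost when replicate 3 of either genotype's senescent cells was left out (highest edgeR adjusted p 0.107) and with limma-voom (0.136). The E2f8 difference was lost when any senescent library but KO replicate 1 was left out (highest edgeR adjusted p 0.172), with limma-voom (0.0526), with a replicate block over all libraries (0.0528) and with only the groups compared in the fit (0.0856), and without KO senescent replicate 1 it was −0.99 (edgeR adjusted p 8.52e-05). Both genes rested on 52 to 115 counts per senescent library. E2f2 was lower in KO by −0.41 without passing (edgeR adjusted p 0.148).

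Levels were next set against each other per length, as CPM per kilobase of all annotated exons of a gene. By this measure E2f4 had the highest level of the 10 members in all 4 groups, at 26.6 ± 2.499 CPM per kb (SD, n = 3) in WT control, 16.0 ± 1.22 in WT senescent, 21.5 ± 3.36 in KO control and 16.2 ± 0.851 in KO senescent cells, and it overlapped no other member. Per kilobase of the longest transcript instead, E2f4 was highest in both control groups, whereas in senescent cells E2f6 had the higher mean, at 20.3 ± 0.876 against 19.7 ± 1.503 CPM per kb in WT and 20.9 ± 1.39 against 19.9 ± 1.05 in KO, with overlapping libraries. Per kilobase of exon, E2f1 was next in control cells, at 14.8 ± 1.39 CPM per kb in WT and 16.2 ± 1.44 in KO. E2f6, Rbl1, E2f8 and E2f3 followed in WT control cells at 9.87, 9.82, 8.73 and 8.17 CPM per kb, and each of these overlapped its neighbour in the order. E2f2 was the lowest in both control groups, at 1.32 ± 0.0167 CPM per kb in WT and 1.40 ± 0.0672 in KO. By this exon measure, E2f6 was second in WT senescent cells at 10.8 ± 0.467 CPM per kb, and changed places with E2f1, at 9.83 ± 0.543. In KO senescent cells they overlapped at 11.1 and 11.4 CPM per kb. This exchange depended on the length used. Per kilobase of the longest transcript, E2f6 lay above E2f1 already in WT control cells, at 18.53 against 16.98 CPM per kb, without overlap. In KO control cells they overlapped by that length, with the higher mean in E2f1 (18.51 against 17.54). E2f6 was above E2f1 in senescent cells of both genotypes by that length, without overlap. Per kilobase of exon, Rb1 rose from rank 9 to rank 4 in WT cells, from 4.35 ± 0.187 to 8.60 ± 0.267 CPM per kb. The lowest levels in senescent cells were those of E2f7 and E2f2, at 0.383 and 0.399 CPM per kb in WT and 0.263 and 0.301 in KO, and these 2 overlapped in both genotypes. In KO senescent cells E2f8, at 0.447 ± 0.190 CPM per kb, overlapped E2f2 as well.

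The summed level of the 8 E2F genes was 82.1 ± 5.62 CPM per kb in WT control and 49.9 ± 0.750 in WT senescent cells, and 76.4 ± 6.17 and 51.6 ± 2.01 CPM per kb in the KO groups (SD, n = 3). Shares of this sum do not depend on library scaling. The share of E2f7 went from 6.92% to 0.768% in WT and from 6.78% to 0.513% in KO cells, and that of E2f8 from 10.6% to 1.34% and from 9.88% to 0.870%. The share of E2f6 went from 12.1% to 21.7% in WT and from 12.2% to 21.6% in KO cells, and that of E2f3 from 9.99% to 12.3% and from 9.88% to 13.2%. A share can rise because the sum falls. On the log2 scale E2f6 itself changed by 0.13 (WT) and 0.25 (KO), and E2f3 by −0.41 and −0.15. E2f4 held 32.4% and 32.0% in WT and 28.0% and 31.3% in KO cells, and E2f1 18.1% and 19.7% in WT and 21.2% and 22.0% in KO cells. Control and senescent shares overlapped for E2f1 and E2f4 in WT cells and for E2f1 and E2f5 in KO cells, and not for the rest. The shares of a library sum to a fixed total, so they are not separate results. No like measure was taken over all genes. With 3 libraries against 3, the exact two-sided permutation test cannot go below a p of 0.1, so it could not pass. The shares without overlap had this p (0.133 after adjustment over the 16 shares tested).

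**Figure D4:**
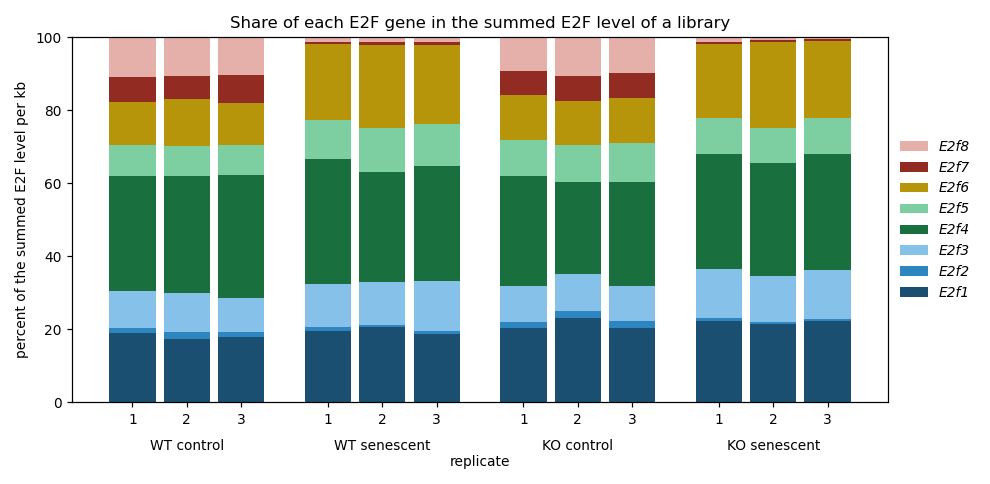
Share of each E2F gene in the summed E2F level per kilobase of exon (vertical axis, percent, stacked to 100) in each of the 12 libraries (horizontal axis, replicates by group). E2f7 and E2f8 take means of 6.92% and 10.6% in WT control cells and shrink to 0.768% and 1.34% in WT senescent cells, while E2f6 widens from 12.1% to 21.7% in WT and from 12.2% to 21.6% in KO cells.

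The pocket protein genes Rb1, Rbl1 and Rbl2 summed to 19.3 ± 0.909 CPM per kb in WT control and 19.5 ± 0.189 in WT senescent cells, and to 21.4 ± 0.621 and 14.8 ± 0.589 CPM per kb in KO control and senescent cells (SD, n = 3). The WT ranges, 18.3 to 20.1 and 19.3 to 19.6 CPM per kb, overlapped and the KO ranges, 20.7 to 21.8 and 14.2 to 15.3, did not. Within the sum, Rbl1 went from 50.8% to 11.9% in WT and from 44.9% to 12.3% in KO cells. Rb1 went from 22.6% to 44.2% and from 25.4% to 40.0%, and Rbl2 from 26.6% to 43.9% and from 29.7% to 47.7%. Control and senescent libraries of a genotype did not overlap in these shares. They too sum to a fixed total, and no like measure was taken over all genes.

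The wider pathway was described by gene lists, which carry no test of their own. Of the DP partners, Tfdp1 fell from 204 to 242 CPM in WT control to 105 to 111 CPM in WT senescent cells, a log2 fold change of −1.06 (SE 0.06, edgeR adjusted p 1.14e-11), and changed by −0.96 (SE 0.06, edgeR adjusted p 5.01e-11) in KO cells. Tfdp2 was at 34.7 to 36.6 and 30.5 to 33.3 CPM in WT and at 38.1 to 40.5 and 26.3 to 27.7 CPM in KO control and senescent cells. Its log2 fold change was −0.16 in WT (edgeR adjusted p 0.038) and −0.54 in KO cells (edgeR adjusted p 2.31e-07), and the interaction of −0.38 passed (edgeR adjusted p 0.00404). The WT change of Tfdp2 did not pass under 9 of 16 alternatives, among them the removal of replicate 1 or 2 of the WT control or 1 or 3 of the WT senescent cells (highest edgeR adjusted p 0.165), and was 0.01 with total counts.

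Of 30 textbook E2F targets of G1/S, the genes for entry into and passage through DNA replication, 30 were called lower in senescent WT and 29 in senescent KO cells, the exception being Cdc25a at −0.996. The share called lower over all genes was 5.9% (WT) and 7.58% (KO). The list median was −2.31 on the log2 scale in WT and −2.39 in KO cells, against 0.02 and −0.0028 over all genes tested. Dnmt1, the maintenance DNA methyltransferase, changed by −1.87 and −2.00. Rrm1 and Rrm2, the subunits of ribonucleotide reductase, changed by −2.34 and −2.10 in WT cells. In KO cells they changed by −2.56 and −1.93. Their interactions, −0.22 and 0.17, passed only without WT control replicate 3 (Rrm1, −0.31) or 2 (Rrm2, 0.27). The interaction median was −0.17 (−0.03 over all genes), with 7 of 30 past the adjusted p lower and 1 higher. That is near the 20.9% of all genes that passed in either direction. E2F letters stood in 12 of the 24 list genes with a promoter entry.

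All 19 textbook DREAM and B-MYB targets of G2/M, genes of mitosis, were called lower in both genotypes. The share called lower over all genes was 5.9% (WT) and 7.58% (KO). Their median was −2.90 in WT and −3.64 in KO cells. The interaction median of these targets was −0.62, with all 19 negative and 13 past the adjusted p, against 20.9% of all genes in either direction. Top2a, which untangles sister DNAs, measured 416 to 529 CPM in control and 39.1 to 48.3 CPM in senescent WT libraries, against 486 to 525 and 24.5 to 35.0 CPM in KO libraries. Its interaction was −0.67 (SE 0.18, edgeR adjusted p 0.0262), and it was lost without replicate 2 or 3 of either senescent group or 1 or 2 of the KO control cells, at adjusted p-values up to 0.0627, and with a replicate block. Cenpf had an interaction of −0.88 (SE 0.20, edgeR adjusted p 0.00926) and Cenpe, a kinetochore motor, of −0.58 (SE 0.24, edgeR adjusted p 0.123). Set against WT senescent cells, KO senescent cells were lower for 18 of the 19 by the edgeR adjusted p, with a list median of −0.64. In that comparison 23.7% of all genes passed in either direction. E2F letters stood in 1 of the 16 list genes with a promoter entry.

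**Figure D5:**
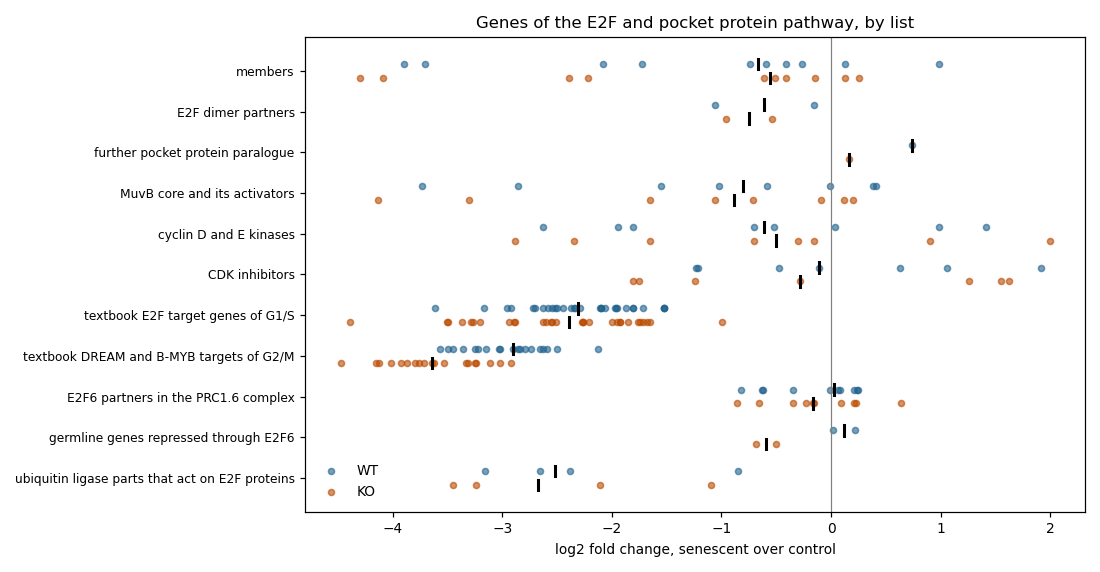
Senescence log2 fold change (horizontal axis) of every gene of the members and of each pathway list, in WT and KO cells, with a black bar at the list median. The G1/S and G2/M targets lie wholly below 0 (medians −2.31 and −2.90 in WT, −2.39 and −3.64 in KO), whereas the E2F6 partners straddle it.

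MuvB proteins form the core that joins p130 in DREAM in resting cells and B-MYB and FOXM1 in dividing ones. The list of 8 holds genes of this core with those of B-MYB, FOXM1 and the kinase DYRK1A. Of the 8 list genes, 4 were called lower in each genotype, against 5.9% (WT) and 7.58% (KO) of all genes. The list did not fall as a whole. By the edgeR adjusted p alone, 2 were higher and 5 lower in WT cells, against 29.2% and 27% of all genes. In KO cells 0 were higher and 5 lower, against 28.5% and 28.6%. The list medians were −0.80 in WT and −0.89 in KO cells. Foxm1 changed by −2.86 (WT) and −3.31 (KO) on the log2 scale. Its interaction of −0.45 was just past the threshold (edgeR adjusted p 0.046) and was lost under 12 of 21 alternatives, including without any KO control library, replicate 2 or 3 of either senescent group, or replicate 2 of the WT control cells (highest 0.135). Rbbp4, a histone-binding subunit, changed by −0.58 and −0.71. Dyrk1a, the kinase that starts DREAM assembly, was at 58.2 to 67.7 CPM in all groups and changed by −0.01 and −0.09 (edgeR adjusted p 0.887 and 0.215). Its direction turned with total counts in both genotypes, to 0.16 and 0.06.

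The list of D and E cyclins and of the kinases that phosphorylate pocket proteins with them went both ways. Of the 8 genes, 3 were called lower (Ccne1, Ccne2 and Cdk2, listed here after their values were seen) and 1 higher in each genotype. Ccne1 and Ccne2 also stand in the list of G1/S targets, so their calls are not separate results. Over all genes, 5.9% (WT) and 7.58% (KO) were called lower and 11.6% and 11.2% higher, so the 1 higher call is near that share. Ccnd1, cyclin D1, measured 241 to 297 CPM in control and 675 to 730 CPM in senescent WT libraries, against 247 to 274 and 1020 to 1068 CPM in KO libraries. It rose by 1.41 (WT) and 2.00 (KO) on the log2 scale, with an interaction of 0.58 (SE 0.09, edgeR adjusted p 0.000143). Ccnd2 rose by 0.98 and 0.90, and Cdk4 changed by −0.70 and −0.71. Exons of Ccnd1 and Cdk4 share 23.4% and 19.7% of their bases with a gene on the other strand.

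Of 7 CDK inhibitors, 2 were called higher and 2 lower in WT and 3 higher and 3 lower in KO cells. Over all genes, 11.6% were called higher and 5.9% lower in WT, and 11.2% and 7.58% in KO cells. Cdkn1a, the p21 gene, rose by 1.92 (WT) and 1.63 (KO) on the log2 scale. Its interaction of −0.29 (edgeR adjusted p 0.0234) was lost when replicate 1 or 2 of the WT control, 3 of the WT senescent or 1 of the KO senescent cells was left out, at adjusted p-values up to 0.0703. Cdkn1b, the p27 gene, measured 94.8 to 102 CPM in control and 66.3 to 72.3 CPM in senescent WT libraries, against 109 to 112 and 42.7 to 50.3 CPM in KO libraries, an interaction of −0.77 (SE 0.08, edgeR adjusted p 5.93e-06). Cdkn2c, the p18 gene, changed by −1.22 (WT) and −1.75 (KO) on the log2 scale, an interaction of −0.54 (SE 0.08, edgeR adjusted p 8.45e-05). In the interaction, 5 of the 7 were past the adjusted p lower and 1, Cdkn2a, higher, a gene named after its value was seen. Over all genes, 20.9% passed in either direction.

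E2F6 acts with a Polycomb complex, PRC1.6. Of its 10 partners, 3 were higher and 4 lower by the edgeR adjusted p in WT and 2 higher and 4 lower in KO cells, each by less than 1 on the log2 scale. These counts are near the background of the adjusted p alone over all genes, 29.2% higher and 27% lower in WT and 28.5% and 28.6% in KO cells. Mga was at 99.9 to 138 CPM and changed by −0.01 and −0.16 (edgeR adjusted p 0.966 and 0.12). The KO change passed without the filter and without replicate 1 of either KO group (lowest edgeR adjusted p 0.0102), and the WT direction turned with total counts. Cbx3 changed by −0.82 and −0.86. Max rose by 0.21 and 0.63, the WT call being lost without WT control replicate 1 (edgeR adjusted p 0.094), an interaction of 0.43 (SE 0.09, edgeR adjusted p 0.0021). The germline genes that E2F6 is known to silence were low. Of 5, only Stag3 and Smc1b passed the filter on low counts, at 1.01 to 2.32 and 0.241 to 0.707 CPM, and Tuba3a was at 0 to 0.135 CPM. Stag3 changed by 0.21 in WT (edgeR adjusted p 0.553) and by −0.68 in KO cells (0.0463), a KO call lost under 12 of 16 alternatives, including the removal of replicate 2 or 3 of either KO group (highest edgeR adjusted p 0.168). Smc1b changed by 0.01 in WT cells, with either sign when a library was left out, and by −0.51 in KO cells (edgeR adjusted p 0.984 and 0.371).

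The ubiquitin ligase parts that act on E2F proteins were lower. Cdc20 also stands in the list of G2/M targets, so its calls are not separate results. Of 4 genes, 3 were called lower in WT and 4 in KO cells, against 5.9% and 7.58% of all genes. Ccnf, cyclin F, changed by −3.16 and −3.45, Cdc20 by −2.65 and −3.24 and Fzr1 by −0.85 and −1.09. The interaction of Cdc20, −0.58, did not pass (edgeR adjusted p 0.0565) but did under 8 of 21 alternatives, among them the removal of WT control replicate 3 or KO senescent replicate 2, and that of Fzr1, −0.24, passed only without WT control replicate 3 (edgeR adjusted p 0.0396).

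Finally, for each member the genes of at least 5 CPM with the most similar log2 CPM over the 12 libraries were sought among 10945 genes. The 12 points fall into 4 groups, so each Pearson r is a description and mixes differences between groups with those within them. E2f7 was most like Atad2 (0.9997) and Birc5 (0.9996), E2f8 like Gen1 (0.997) and Aunip (0.997), Rbl1 like Mcm6 (0.999) and Stil (0.999) and E2f2 like Rad51c (0.995) and Kif14 (0.994). The members with small changes had other nearest genes. These were Impa1 (0.977) and Nfil3 (0.972) for E2f1, Mta1 (0.966) and Josd1 (0.960) for E2f3, Nudc (0.982) for E2f4, Pcyt1b (0.978) and Arrdc1 (0.976) for E2f5 and Tmem192 (0.966) and Idh3b (0.938) for E2f6. Rb1 was most like Acot11 (0.986) and Clca3a1 (0.979). Among the members themselves, E2f7 and E2f8 (0.996) and E2f7 and Rbl1 (0.996) were closest, and E2f3 and Rb1 were furthest apart (−0.880).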

How the data were processed

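RNA-seq was measured in 12 libraries, 3 in each of 4 groups assigned from the submitters' titles. The deposited values were raw counts per gene, in 1 table per genotype. The authors enriched poly(A) RNA, prepared libraries with a NEBNext Ultra II kit, trimmed paired reads with Trimmomatic 0.36, mapped them to GRCm38 with STAR 2.5.2b and counted unique reads in exons with featureCounts. Dropping reads with several places lowers genes with near-identical copies. The annotation release and the use of strand are not given in the sources used here. Positions, exon lengths and overlaps came from the GENCODE M21 annotation of GRCm38, where 48970 of 49315 identifiers had a symbol.

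Genes were filtered with filterByExpr over the 4 groups. TMM scaling and robust quasi-likelihood F-tests (edgeR 4.0.16, R 4.3.3) were fitted over all 12 libraries with 1 mean per group, and p-values were adjusted by Benjamini-Hochberg over 17416 genes. The SE is the absolute log2 fold change over the square root of F, and 95% intervals are normal intervals from that SE. Adjusted p-values are from edgeR where no other tool is given. Alternatives used DESeq2 1.42.0, limma 3.58.1 (voom), glmTreat, other scalings and filters, a replicate block and leaving out each library. Likeness used log2 CPM with a prior count of 2.

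All 10 members, Arntl, the 3 most abundant genes of each list (all of a shorter list) and the 2 genes most like each member were named, and others where said. A gene that this rule would name is not reported here. The members and lists were chosen with earlier results of these data known. Total counts per library set the precision, and floors of 3 counts cover counting error only, since the sources used here describe no molecular identifiers. No protein sequences were used here.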

Additional observations from a re-analysis of the deposited data

Results flagged for a closer look

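The senescence changes of 16 named genes differed, 12 of them named by rule and 4 otherwise, between KO and WT cells by the interaction test of edgeR. Among the pocket proteins these were Rb1, at −0.86 on the log2 scale (KO change less WT change), and Rbl2, at −0.58. The targeted gene, Arntl, differed by 0.82 and the DP partner Tfdp2 by −0.38. Foxm1 differed by −0.45, Top2a by −0.67 and Cenpf by −0.88, all lower in KO. Among the regulators of pocket protein phosphorylation, Ccnd1 differed by 0.58, Cdkn1a by −0.29, Cdkn1b by −0.77 and Cdkn2c by −0.54. Of the E2F6 partners, Max differed by 0.43. Of the genes named otherwise, Rcbtb2, whose exons overlap those of Rb1, differed by −0.52. Cdc25a (0.53), Cdk2 (−0.40) and Cdkn2a (1.36) were named after their values were seen. Of all genes tested, 20.9% passed in the same test. The count of 16 has no total of named genes beside it, so it cannot be read against that share. Genes named only for their likeness to a member were not examined in this test.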

How the results depend on the processing

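The 4 members called lower with senescence were the same in both genotypes under every scaling, filter, tool and left-out library. With no fold threshold, 9 members changed in WT and 8 in KO senescence, 1 differed in the interaction, 2 between control and 4 between senescent cells of the genotypes. The interaction, past the adjusted p in 1 member, was so in 2 with DESeq2 size factors, upper-quartile scaling, total counts, a stricter filter or DESeq2's Wald test, in 3 without a filter or with a replicate block over all libraries, and in 1 to 3 with a library left out (3 without WT control replicate 3 or KO control replicate 1). Between control cells the count of 2 became 1 with only the groups compared and was 1 to 2 with a library left out. Between senescent cells the count of 4 became 5 with DESeq2 size factors, no filter or DESeq2's Wald test, 3 with a replicate block, 2 with limma-voom, and was 2 to 4 with a library left out (2 without replicate 3 of either senescent group). The cause was not tested. Deviations of same-numbered libraries from their group means correlated only from −0.125 to 0.127. Whether such libraries share an origin is not given in the sources used here, so pairing remains unknown.

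Some small changes turned sign. With total counts, Tfdp2 (0.011), Dyrk1a (0.16) and Mga (0.17) did in WT, E2f3 (0.0045) and Dyrk1a (0.065) in KO cells, and E2f4 between senescent cells (−0.018), where the median of all genes moved to 0.19 in WT and 0.15 in KO cells. Dyrk1a and Mga in WT were at 0.075 and 0.082 with upper-quartile scaling and at 0.014 and 0.0201 with a stricter filter. Smc1b in WT was −0.015 with only the groups compared, and the Cdk4 interaction was 0.024 with DESeq2 size factors and with its Wald test. With a library left out, the WT change ranged from −0.065 to 0.034 for Dyrk1a, −0.028 to 0.031 for Mga and −0.28 to 0.39 for Smc1b, the Cdk4 interaction from −0.0503 to 0.036, the Rbl1 difference between control cells from −0.11 to 0.042 and the E2f4 difference between senescent cells from −0.026 to 0.081. Shares depend on gene length. E2f4 held 19.8% of the summed counts in WT control cells, and per longest transcript E2f6 passed E2f4 in the mean of both senescent groups. Over all values other than the counts above, 2258 kept direction and side, 85 lost and 43 gained the threshold, 30 reversed and 61 shares moved. Counts of 38 to 115 per library limit E2f2, E2f7 and E2f8 in senescent cells.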
